A study of Homo sapiens with 6 samples.

Results

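The expression of 9 mature miRNAs, largely restricted to blood cells or liver, was followed through the small RNA libraries of A549 cells: miR-451a, miR-144-3p, miR-144-5p, miR-486-5p, miR-223-3p, miR-142-5p, miR-142-3p, miR-150-5p and miR-122-5p. They were chosen by name and make up 9 of the 2588 miRNAs of the deposited table. A549 cells are an established human line of lung adenocarcinoma origin. The small RNA of parental cells (Ctrl, 3 libraries) and of cells with a CRISPR/Cas9 deletion of the *MIR21* locus (*MIR21*-KO, 3 libraries) was sequenced, and the study compared both to follow what the loss of miR-21 does to the miRNA content of the cells. All cells grew in DMEM with 10% fetal bovine serum and were harvested 48 h after seeding, with no treatment. The *MIR21*-KO cells descend from single sorted cells that had received Cas9 and a pair of guide RNAs, and how many clones stand behind the 3 libraries is not given in the sources used here. Nothing in the labels says that the libraries of a group came from separate cultures, so all p-values measure the spread between these libraries only.

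The 9 miRNAs are textbook markers of their cell types. miR-451a, miR-144-3p and miR-144-5p derive from a shared erythroid gene cluster driven by GATA1, and the precursor of miR-451a is cut by AGO2 instead of Dicer. miR-486-5p arises from an intron of ANK1, the gene of the erythrocyte membrane protein ankyrin-1, and is also known from muscle. miR-223-3p marks granulocytes and monocytes, miR-142-5p and miR-142-3p mark nearly all hematopoietic cells, and miR-150-5p marks mature lymphocytes. miR-122-5p is the dominant miRNA of hepatocytes and a host factor of hepatitis C virus. Several of these miRNAs also circulate in blood plasma.

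Mature sequences of 6 of the 9 miRNAs were found in the RefSeq table for GRCh38.p14, and miR-451a, miR-486-5p and miR-150-5p are named only. The sequences are shown since the seed, bases 2 to 8 and written here in capitals, sets which mRNAs a miRNA pairs with, and since near-identical miRNAs could share reads. The unread strand of the *MIR122* hairpin is given below its partner.
hsa-miR-144-3p: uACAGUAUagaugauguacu
hsa-miR-144-5p: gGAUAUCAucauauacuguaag
hsa-miR-223-3p: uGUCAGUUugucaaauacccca
hsa-miR-142-5p: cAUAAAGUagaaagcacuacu
hsa-miR-142-3p: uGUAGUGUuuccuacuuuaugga
hsa-miR-122-5p: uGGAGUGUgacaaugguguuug
hsa-miR-122-3p: aACGCCAUuaucacacuaaaua

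No seed was shared among the 6 members printed here. Among the 2369 other mature sequences compared, miR-5590-3p alone had the seed of a member, that of miR-142-5p, and it had 0 reads in all 6 libraries. The nearest other mature sequences lay 5 to 8 edits away (substitutions, insertions or deletions). The nearest to miR-122-5p was miR-3591-5p, 5 edits away, which reached 10 reads in any library.

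On GRCh38, *MIR451A* lies on chr17:28861369-28861440 (minus strand) within an exon of the long noncoding RNA gene AC024267.1, and *MIR144* lies 92 bases from it on chr17:28861533-28861618 of the same strand. *MIR451B* is annotated on the strand opposite to *MIR451A*. *MIR142* (chr17:58331232-58331318, minus strand) overlaps an exon of AC004687.1, and *MIR223* (chrX:66018870-66018979, plus strand) an exon of AL034397.3. *MIR150* (chr19:49500785-49500868, minus strand) overlaps no other annotated gene. *MIR122* (chr18:58451074-58451158, plus strand) lies in an exon of its host gene MIR122HG, opposite to *MIR3591*. miR-486-5p is encoded by a pair of hairpins that overlap on opposite strands within an intron of ANK1 on chromosome 8. The mature strands shown above lie at chr17:28861548-28861567 (miR-144-3p), chr17:28861583-28861604 (miR-144-5p), chrX:66018937-66018958 (miR-223-3p), chr17:58331283-58331303 (miR-142-5p), chr17:58331245-58331267 (miR-142-3p), chr18:58451088-58451109 (miR-122-5p) and chr18:58451124-58451145 (miR-122-3p).

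The libraries held 5577287 to 9768152 miRNA reads, 44313074 in all. The deletion was seen in every *MIR21*-KO library: miR-21-5p and miR-21-3p together made up 65.5% to 69.6% of the miRNA reads in Ctrl, whereas miR-21-5p made up 0.0241%, 0.0156% and 0.0254% in *MIR21*-KO. Reads other than miR-21 numbered 1945114 to 2966597 per Ctrl library and 5575869 to 8669527 per *MIR21*-KO library, so that a share of all miRNA reads has a different meaning in the groups. The authors' TMM factors aim to set the level of most miRNAs equal between libraries in the deposited values, which those values need not meet. The median log2 difference of *MIR21*-KO minus Ctrl over all miRNAs tested was 0.24 on them. The miR-200 family of epithelial miRNAs was read as a check of epithelial character, which does not identify the line. Of the family, 5 of 5 passed the filter on low values, as did 23.5% of all miRNAs. The summed share was 822 to 1502 reads per 1000000 miRNA reads (RPM) in Ctrl and 1407 to 1752 in *MIR21*-KO. Its miRNAs were unequal, with means of 917 RPM in Ctrl and 1128 in *MIR21*-KO for miR-200b-3p. For miR-141-3p, with 1 to 19 reads per library, the means were 0.967 and 1.43 RPM. The direction was the reverse on the deposited scale. There the means were 1496 in Ctrl and 715 in *MIR21*-KO for miR-200b-3p (limma, adjusted p = 0.431). For miR-141-3p they were 1.43 and 0.836 (limma, adjusted p = 0.790). The largest variation among the libraries did not follow the groups. The first principal component of 604 miRNAs, computed without the members and carrying 63.8% of the variance, placed Ctrl replicates 1 and 2 and *MIR21*-KO replicate 3 on the first side (hereafter set A) and Ctrl replicate 3 and *MIR21*-KO replicates 1 and 2 on the other (set B). The second component, with 27.1% of the variance, separated Ctrl from *MIR21*-KO. The labels give no such sets. They were read from the measured values, so differences between them are given as a description with no test, and p-values of a fit that holds them as a term are not independent of them.

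The 9 miRNAs fell into a scarce class and an abundant class, a division read from these same values. Abundant here means relative to the scarce members only. All 9 miRNAs had at least 1 read, and together they had 7139 reads in the 6 libraries. Of these, 99.4% came from miR-486-5p, miR-122-5p and miR-451a, and 70.3% from miR-486-5p alone. The other 6 summed to 44 reads and had at most 4 reads in any library, a limit that 1659 of all 2588 miRNAs (64.1%) and 610 of the 1539 miRNAs with a read (39.6%) also kept.

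By mean reads per library, miR-486-5p stood at place 168 of the 1539 miRNAs with a read, miR-122-5p at 231 and miR-451a at 361. miR-142-3p (place 877), miR-144-5p (897), miR-150-5p (971), miR-142-5p (993), miR-144-3p (1110) and miR-223-3p (1263) followed at a distance. Within single libraries, miR-486-5p held places 128 to 188, miR-122-5p places 141 to 349 and miR-451a places 201 to 506. The order of miR-486-5p above miR-122-5p above miR-451a held in 6 of 6 libraries. The order among the 6 scarce miRNAs rests on single reads and changes from library to library.

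Among the markers of white blood cells, miR-223-3p, the myeloid marker, was the scarcest, with 0, 1 and 0 reads in Ctrl replicates 1 to 3 and 0, 0 and 1 in *MIR21*-KO. Its 2 reads in 44313074 corresponded to 0.0451 RPM, with a 95% Wilson interval from 0.0124 to 0.165. Here and below, such intervals cover counting error only, since reads were not identified by molecule. The pan-hematopoietic miR-142-3p was the only scarce miRNA with a read in every library, 1, 2 and 2 in the Ctrl libraries and 2, 4 and 1 in *MIR21*-KO (0.271 RPM over all libraries, interval 0.155 to 0.473). Its partner strand miR-142-5p had 1, 0 and 2 reads in Ctrl and 0, 4 and 0 in *MIR21*-KO (0.158 RPM, interval 0.0765 to 0.326). The lymphoid miR-150-5p was seen with 2, 4 and 0 reads in the Ctrl libraries, against 1, 0 and 1 in *MIR21*-KO (0.181 RPM, interval 0.0915 to 0.356). The groups overlapped for each of these miRNAs.

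The other strands of the *MIR223* and *MIR150* hairpins, miR-223-5p and miR-150-3p, gave 0 of 44313074 reads, which allows up to 0.0677 RPM each. The same held for miR-4736, whose gene lies 4657 bases from *MIR142*.

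The erythroid members differed widely among themselves. From the *MIR144* hairpin, miR-144-3p had 0, 1 and 0 reads in Ctrl and 2, 1 and 0 in *MIR21*-KO (0.0903 RPM, interval 0.0351 to 0.232). miR-144-5p had 0, 3 and 2 reads in Ctrl and 4, 1 and 1 in *MIR21*-KO (0.248 RPM, interval 0.139 to 0.445). Both thus stayed between 0 and 4 reads in every library, with overlapping groups. In contrast, miR-451a, encoded 92 bases away, had 61, 154 and 12 reads in Ctrl and 64, 34 and 69 in *MIR21*-KO, and 8.89 RPM over all libraries (interval 8.06 to 9.81). Both strands of *MIR144* together had 15 reads, or 3.67% of the reads of *MIR144* and miR-451a (Wilson interval 2.23% to 5.96%). The remaining neighbours, miR-451b and both strands of *MIR4732*, which starts 36 bases beyond *MIR144*, had 0 reads, again with a limit of 0.0677 RPM.

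Summed over the 6 scarce miRNAs, Ctrl libraries had 4, 11 and 6 reads and *MIR21*-KO libraries 9, 10 and 4. This corresponded to 0.992 ± 0.682 and 1.05 ± 0.332 RPM (SD, n = 3 each). Of the 36 values of these miRNAs, 13 were at 0 and 11 at 1 read. As a share of reads other than miR-21, the sum was 1.69, 5.66 and 2.02 per 1000000 such reads in Ctrl, compared with 1.04, 1.38 and 0.717 in *MIR21*-KO, so that the groups overlapped on the former scale and not on the latter. How many of all miRNAs show no overlap on the latter scale was not computed. These sums of 4 to 11 reads per library were not tested, and none of the 6 passed the filter for testing, which asked for 3 or more libraries with a deposited value of 1 or more.

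miR-486-5p was the most abundant member, with 613, 648 and 954 reads in Ctrl and 1112, 1049 and 643 in *MIR21*-KO. On the deposited scale of TMM-scaled counts per 1000000, these were 164, 175 and 135 in Ctrl, compared with 80.1, 75.7 and 83.6 in *MIR21*-KO. Every *MIR21*-KO library thus lay below every Ctrl library, with means of 158 ± 20.9 and 79.8 ± 3.98 (SD, n = 3 each). This was the pattern of 6.59% of the 607 miRNAs tested.

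The difference did not pass the test. In limma on log2(value + 1), miR-486-5p was at -0.97 in *MIR21*-KO relative to Ctrl on the log2 scale, with an SE of 0.41 and a 95% interval from -1.91 to -0.02. Its unadjusted p was 0.0456, reached together with a fall by 4.45% of the miRNAs tested, and its adjusted p over all 607 was 0.434. It stood at place 48 of 607 by size of the fall. In bulk libraries such as these, fewer cells that carry a miRNA and less of it per cell cannot be told apart.

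The sign of this difference depended on the scale. As a share of all miRNA reads, miR-486-5p was lower in Ctrl, with 89.2, 105 and 97.7 RPM against 128, 145 and 115 in *MIR21*-KO. As a share of reads other than miR-21, it was higher in Ctrl, with 259, 333 and 322 per 1000000 such reads against 128, 145 and 115. The groups did not overlap on any of these scales, but the share of all miRNAs with such a pattern was computed for the deposited values only. Fitted by limma, the difference was 0.41 with shares of all miRNA reads (adjusted p = 0.402) and -1.22 without miR-21 (adjusted p = 0.375). Scaling to all miRNA reads moved the median over all 607 miRNAs from 0.24 to 1.34, and relative to these medians miR-486-5p lay lower in *MIR21*-KO on both.

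miR-486-5p was the single member that any of the tested alternatives called. DESeq2 on the recovered reads gave -1.137 (adjusted p = 0.0287), where it called 18 of 607 miRNAs lower, and edgeR gave -1.03 (adjusted p = 0.449). When sets A and B were added to the limma fit as a term, it gave -0.90 ± 0.26 (SE) and an adjusted p of 0.0270. That fit called 71 of 607 miRNAs higher and 39 lower, with p-values that are not independent of the sets. Within set A, *MIR21*-KO minus Ctrl was -1.01 and within set B it was -0.78, where the medians over all miRNAs were 0.13 in both.

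The other strand, miR-486-3p, had 141, 79 and 109 reads in Ctrl and 179, 206 and 154 in *MIR21*-KO, with overlapping deposited values and a log2 difference of -0.54 (limma, adjusted p = 0.719). The ratio of miR-486-5p to miR-486-3p reads, which does not depend on any scaling, was 4.35, 8.20 and 8.75 in the Ctrl libraries and 6.21, 5.09 and 4.18 in *MIR21*-KO. Means were 7.10 ± 2.40 and 5.16 ± 1.02 (SD, n = 3 each; two-sided exact permutation test on the log ratio, p = 0.3, where 0.1 is the smallest p that 3 against 3 allows). miR-486-5p was the only member with a pair of entries in the table, and the first entry held 44.6% to 48.7% of its reads in each library. Tested apart, the entries gave -0.98 (limma, adjusted p = 0.428) and -0.93 (adjusted p = 0.440).

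miR-122-5p, the hepatocyte miRNA, had 362, 521 and 56 reads in Ctrl and 225, 119 and 399 in *MIR21*-KO, or 38.0 RPM over all libraries (Wilson interval 36.2 to 39.8). Its deposited values were 96.7, 141 and 7.90 in Ctrl, compared with 16.2, 8.58 and 51.9 in *MIR21*-KO. Ctrl replicate 3 was the lowest of all libraries and Ctrl replicate 2 the highest, 17.8 times apart, so that the groups overlapped.

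The means were 81.8 ± 67.7 in Ctrl and 25.6 ± 23.1 in *MIR21*-KO (SD, n = 3 each), a log2 difference of -1.27 with an SE of 1.12 and an interval from -3.88 to 1.33 (limma, adjusted p = 0.719). A single library decided its size: it was -2.52 without Ctrl replicate 3 (adjusted p = 0.121) and -0.52 without Ctrl replicate 2 (adjusted p = 0.973). The passenger strand miR-122-3p had 0 reads, which limits it to 0.178% of the 1682 reads of miR-122-5p, as far as counting error goes.

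miR-451a behaved alike, at lower values of 16.3, 41.6 and 1.69 in the Ctrl libraries and 4.61, 2.45 and 8.97 in *MIR21*-KO. Its lowest and highest libraries were those of miR-122-5p, Ctrl replicates 3 and 2, and differed 24.6-fold, against 2.32-fold for miR-486-5p. Means were 19.9 ± 20.2 and 5.34 ± 3.32 (SD, n = 3 each), and the log2 difference was -1.12 with an SE of 0.98 and an interval from -3.40 to 1.15 (limma, adjusted p = 0.719). Without Ctrl replicate 3 it was -2.23 (adjusted p = 0.121), and without Ctrl replicate 2 it was -0.24 (adjusted p = 0.987).

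None of the 3 members tested passed an adjusted p of 0.05 in either direction, with miR-486-5p as the only member below 0.05 before adjustment. Over all 607 miRNAs, limma called 0 higher (0%) and 5 lower (0.824%) in *MIR21*-KO, and 41 and 27 had an unadjusted p under 0.05. edgeR called 0 and 7, and DESeq2 4 and 18. The 3 members lay at places 23 (miR-122-5p), 36 (miR-451a) and 48 (miR-486-5p) of 607 by size of the fall, with a median log2 difference of -1.12 against 0.24 over all miRNAs tested. The 6 scarce members are not part of this median, which therefore does not describe the 9 as a whole. It is the value of miR-451a itself. For miR-451a and miR-122-5p the groups overlapped, and the size of the difference moved with single libraries of either group, most with Ctrl replicates 2 and 3.

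The values of miR-122-5p and miR-451a separated the sets of libraries and overlapped between the groups. What the sets stand for, and their part in these differences, was not tested. Every library of set A lay above every library of set B for both, a pattern shared by 22.1% of the 607 miRNAs, while 35.1% had the reverse. For miR-122-5p the difference of set A minus set B was 2.99 on the log2 scale (place 9 of 607 from the top) and for miR-451a it was 2.38 (place 20), whereas the median over all miRNAs was -0.23. miR-486-5p differed by 0.51 with overlapping sets. Since most libraries of set A are Ctrl and most of set B are *MIR21*-KO, all these differences also carry part of that between the groups. The deleted miR-21-5p stood at place 1 (4.79).

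Set A holds a single *MIR21*-KO library and set B a single Ctrl library, so that each difference within a set rests on 1 library on one side and its sign was not tested. For miR-122-5p the difference between *MIR21*-KO and Ctrl was -1.15 in set A and 0.53 in set B, and for miR-451a it was -1.45 and 0.71. Of the 607 miRNAs, 31.5% had opposite signs in the sets. With a term for the sets in the limma fit, the differences shrank to -0.31 ± 0.39 (SE, adjusted p = 0.632) for miR-122-5p and -0.37 ± 0.47 (SE, adjusted p = 0.642) for miR-451a.

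Within libraries, the ratio of the reads of the hepatocyte miR-122-5p to those of the erythroid miR-451a varied less than their values. It was 5.93, 3.38 and 4.67 in Ctrl, compared with 3.52, 3.50 and 5.78 in *MIR21*-KO, so that the highest and lowest were 1.75 times apart while the values themselves varied by 17.8 and 24.6 times. The ratio differed between libraries by more than counting error, with 95% intervals from 4.53 to 7.78 in Ctrl replicate 1 and from 2.83 to 4.05 in Ctrl replicate 2. The ratio of miR-486-5p to miR-451a, both erythroid, ranged from 4.21 in Ctrl replicate 2 to 79.5 in Ctrl replicate 3, an 18.9-fold spread. That of miR-486-5p to miR-122-5p ranged from 1.24 to 17.0 in the same libraries, a 13.7-fold spread. Pairs of miRNAs outside the members and their other strands were not compared in this way, so how common so small a spread is remains unknown. Both miR-122-5p and miR-451a had every library of set A above every library of set B, as had 22.1% of the 607 miRNAs.

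Profiles over the 6 libraries were compared by the root-mean-square distance between centred log2(value + 1) values, given as a description of 6 points that share depth and scaling. Of the 606 other miRNAs, miR-122-5p was the nearest to miR-451a, at 0.39, and miR-451a stood at place 3 for miR-122-5p. miR-486-5p stood at place 140 for miR-451a and at place 152 for miR-122-5p, at a distance of 1.34 from the latter. Outside the members and their hairpins, miR-4664-3p (0.28), miR-659-5p (0.39) and miR-3158-3p (0.40) were nearest to miR-122-5p among 603 miRNAs, with a median distance of 1.77. miR-573 (0.16), miR-4671-3p (0.17) and miR-579-5p (0.19) were nearest to miR-486-5p, with a median of 0.87. miR-4671-3p had 1 to 11 reads per library, and its place is correspondingly uncertain.

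Summed over all 9 members, the share was 151, 216 and 105 RPM in Ctrl and 163, 167 and 200 in *MIR21*-KO, with means of 157 ± 55.6 and 177 ± 20.3 (SD, n = 3 each) and overlapping groups. Without miR-21 in the total, the Ctrl libraries had 439, 686 and 347 reads per 1000000 and the *MIR21*-KO libraries 163, 167 and 200, with no overlap. How many of all miRNAs show no overlap on that scale was not computed, so this separation has no background beside it.

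**Figure D1:**
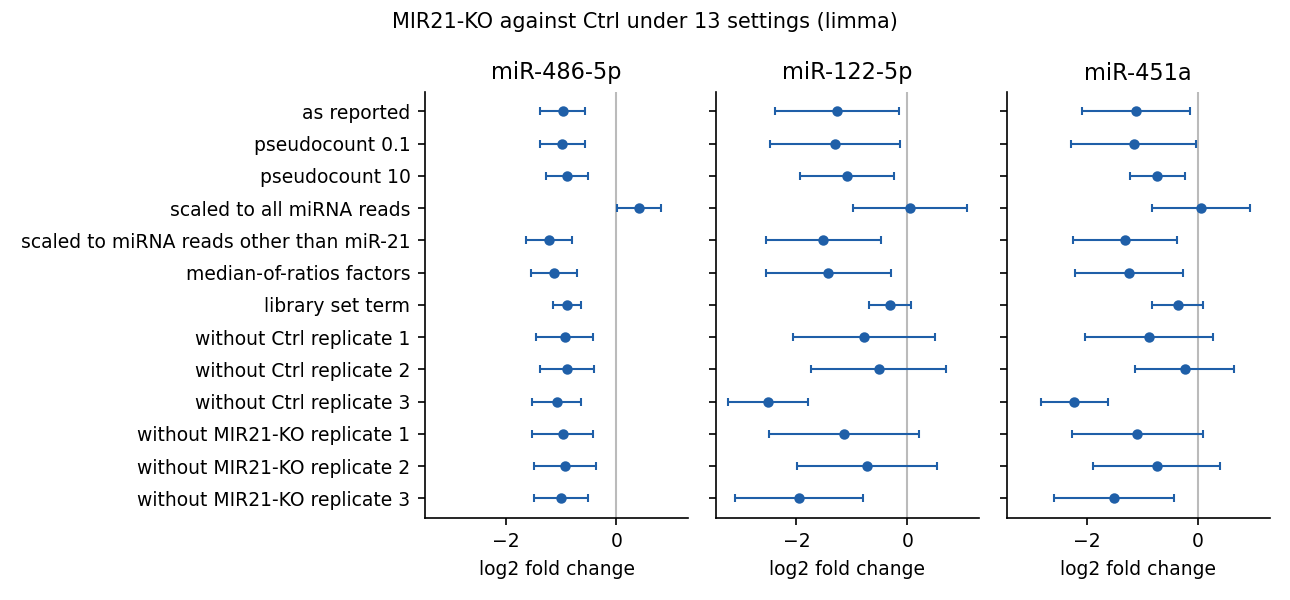
Log2 difference of *MIR21*-KO minus Ctrl (points, with the SE as bars) of the 3 abundant members as reported and under 12 other settings, all fitted with limma. The values of miR-486-5p run from -1.22 to -0.89 under all settings shown but scaling to all miRNA reads (0.41), and those of miR-122-5p and miR-451a run from -2.52 and -2.23 without Ctrl replicate 3 to 0.05 each with that scaling.

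Other miRNAs of blood cells were not uniformly scarce. A list of 8 miRNAs enriched in, but not exclusive to, hematopoietic cells includes miR-223-5p, miR-150-3p and miR-486-3p, described above. Of the 8, 2 had 0 reads and 5 passed the filter, of which limma on the deposited values called 0 in either direction. miR-146a-5p, an NF-κB-induced inhibitor of innate immune signaling, had 132678 reads over all libraries and lay above Ctrl in every *MIR21*-KO library, at 3110 ± 1618 against 658 ± 468 (SD, n = 3 each; log2 difference 2.29, limma, adjusted p = 0.276). miR-155-5p, induced in activated lymphocytes, had 1204 reads and gave 27.0 ± 4.36 against 14.6 ± 4.32 (log2 difference 0.87, adjusted p = 0.513), again with no overlap, a pattern of 9.56% of the miRNAs tested. With the library sets as a term, limma called miR-146a-5p higher (1.75, adjusted p = 1.06e-04). That fit called 71 of 607 miRNAs higher, and its p-values are not independent of sets read from values that include miR-146a-5p. With scaling to all miRNA reads, limma called both miR-146a-5p (adjusted p = 0.0246) and miR-155-5p (adjusted p = 0.0261) higher, but so it did 196 of the 607 miRNAs. DESeq2 and edgeR called neither (adjusted p = 0.0794 and 0.315 for miR-146a-5p, 0.543 and 0.588 for miR-155-5p). The groups overlapped for miR-342-3p (7213 reads) and for miR-16-2-3p (3532 reads). Of the liver list beside miR-122-5p, miR-122-3p had 0 reads and miR-885-5p had 2.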

How the data were processed

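Small RNA was measured in 3 Ctrl and 3 *MIR21*-KO libraries. The submitters' processing notes name cutadapt 1.14, Bowtie2 2.3.2, SAMtools 1.5, featureCounts 1.5.3, edgeR 3.18.1 and hg38, with no settings. How reads that fit several loci were counted is not given in the sources used here. The authors deposited a signal per miRNA, the reads of 2813 entries scaled by 1 TMM factor per library. All values above 0 were whole multiples (tolerance 1e-06) of the value of 1 read, which gave the reads back. TMM-scaled counts recomputed from them matched within 4.88e-15. The log2 fold changes and p-values of the authors' own comparison, also deposited, were not used.

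Entries of the same name (167 miRNAs) were summed. The libraries of Ctrl and *MIR21*-KO were compared over 607 miRNAs (a value of 1 or more in 3 or more of the 6 libraries) on the scale of log2(value + 1) with limma 3.58.1 under R 4.3.3 (lmFit, then eBayes with a trend), which understates changes of scarce miRNAs. Two-sided p-values were adjusted over all 607 by the Benjamini-Hochberg method. Since reads were recovered, edgeR 4.0.16 and DESeq2 1.42.0 were run on them as alternatives. Other alternatives were pseudocounts of 0.1 and 10, other filters and scalings, a replicate block, a term for the sets of libraries, entries left unsummed and each library left out in turn. The fit was also run on simulated counts drawn independently for each library. They held no sets of libraries, so that run does not show how the fit behaves with such sets. Shares have 95% Wilson intervals, and 0 reads allow up to 3. Replicates differed by more than sampling noise (chi-square per degree of freedom 130 to 2560).

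The members and lists were chosen with earlier results of these data known. Named were the 9 members, the other strands and cluster neighbours of their hairpins, the 3 miRNAs with the nearest profile for each member with at least 50 reads in all libraries, miR-21-5p and miR-21-3p, and at most 5 miRNAs per cell type list with over 100 reads in any library. miR-885-5p, miR-372-3p, miR-5590-3p and miR-3591-5p, and the distances between members, were named after their values were seen. Genome positions were taken from GENCODE 29 (GRCh38). Reads, shares and distances were computed in Python 3.11.15 with scipy 1.17.1, pandas 2.3.3 and numpy 2.4.6, and plots drawn with matplotlib 3.10.9.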

Additional observations from a re-analysis of the deposited data

How the results depend on the processing

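Scaled to all miRNA reads, the log2 differences became 0.054 for miR-451a, 0.41 for miR-486-5p and 0.048 for miR-122-5p, since miR-21 fills most of the Ctrl reads, and 196 miRNAs were called higher. DESeq2 called 4 miRNAs higher and 18 lower and gave no adjusted p for 8. The term for the sets of libraries called 71 higher and 39 lower, with p-values that are not independent of sets read from the same data. DESeq2 and the set term each called 1 member lower, miR-486-5p, and scaling to all miRNA reads called 0. A pseudocount of 10 left 3 miRNAs lower, and leaving out each library in turn left 1 to 3, with fewer libraries in the fit. For DESeq2, the set term and the pseudocount the cause was not tested. With the replicate block, 2 miRNAs were called lower and the adjusted p of miR-486-5p was 0.9505. Deviations from the group means correlated at -0.79, -0.60 and -0.88 between same-numbered libraries. Those libraries lay in opposite sets, so the correlations cannot show whether they were grown or prepared together. Nothing in the labels ties them. Over all settings, the log2 differences ran from -2.52 to 0.05 for miR-122-5p, from -2.23 to 0.05 for miR-451a and from -1.22 to 0.41 for miR-486-5p. With miR-21 left out of the total, the summed share of the 9 members in Ctrl was 490.5 reads per 1000000 in place of 157.5. With a library left out it was 128 to 184 in Ctrl and 165 to 184 in *MIR21*-KO. Depth limits the 6 scarce miRNAs, at no more than 4 reads per library.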

Other observations

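Lists of miRNAs of other tissues also held members with and without reads. Of 8 miRNAs of pluripotent cells, 7 had 0 reads in all libraries, and miR-372-3p had 2 reads. Of 7 muscle miRNAs, 2 had 0 reads and 2 passed the filter, and miR-1-3p, which marks striated muscle, was the highest with 40 to 547 reads per library. Of 6 neural miRNAs, 3 passed the filter: miR-9-5p with 13423 reads over all libraries, miR-137 with 1632 and miR-9-3p with 621. miR-9-5p lay below Ctrl in every *MIR21*-KO library, a pattern of 6.59% of the 607 miRNAs tested, at 164 ± 11.4 against 572 ± 179 (SD, n = 3 each; log2 difference -1.75, limma, adjusted p = 0.191). edgeR did not call miR-9-5p either (-1.85, adjusted p = 0.180), whereas DESeq2 (-1.95, adjusted p = 4.56e-04) and limma with the library sets as a term (-1.59, adjusted p = 7.67e-04) called it lower. DESeq2 called 18 of 607 miRNAs lower and the fit with the set term 39. The p-values of the latter are not independent of the sets, which were read from values that include miR-9-5p. miR-9-3p also lay below Ctrl in every *MIR21*-KO library (-1.99, limma, adjusted p = 0.176), uncalled by edgeR (adjusted p = 0.144) and called by DESeq2 (adjusted p = 6.26e-04). For miR-137 the groups overlapped (0.33, limma, adjusted p = 0.882). The reads of miR-9-5p alone, 13423, thus exceeded the 7139 reads of the 9 blood and liver miRNAs together.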
